A study of Sus scrofa with 32 samples.

Results

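The mucus genes of goblet cells were followed in droplet single-cell RNA sequencing of the pig ileum. The set was a list of 6 symbols (MUC2, TFF3, SPINK4, AGR2, FCGBP and CLCA1), of which 5 were found among the 25880 genes of the count matrices. TFF3, SPINK4, AGR2 and CLCA1 were named in the matrices, MUC2 stood there under its Ensembl identifier alone and was named through a gene name table, and FCGBP matched no row and was not analysed here. The genes were read in epithelial cells, in ambient barcodes and, for comparison, in the other cells of the same libraries.

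Distal ileum was taken from 2 mixed-breed pigs of 7 weeks of age, with no treatment, and each ileum was dissected into tissue holding Peyer's patches (PP), tissue without them (non-PP) and a complete cross section (whole ileum), which gave 1 library per dissection and pig and 6 ileal libraries. Blood mononuclear cells (PBMC) of the same pigs gave 2 further libraries. The ileal suspensions combined epithelium, lamina propria and submucosa and had been enriched for viable lymphocytes before loading, so that epithelial cells were a small remainder. The labels describe pig 1 as female and pig 2 as male.

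Goblet cells are secretory cells of the intestinal epithelium that store mucus in granules and release it onto the surface. The gel is built by MUC2, a very large secreted mucin that is folded in the endoplasmic reticulum with the help of AGR2, a protein disulfide isomerase, and is packed with smaller secreted proteins: TFF3, a trefoil peptide linked to repair of the epithelium, CLCA1, a secreted metalloprotease that acts on the mucin, SPINK4, a Kazal-type protease inhibitor, and FCGBP, a mucin-associated protein. The transcription factor SPDEF is a known driver of goblet cell maturation.

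On Sscrofa11.1, RefSeq places MUC2 (ENSSSCG00000040035) at chr2:689363-719542, TFF3 (ENSSSCG00000022857) at chr13:205641038-205644333 and SPINK4 (ENSSSCG00000010997) at chr10:33246260-33255617. AGR2 (ENSSSCG00000015363) lies at chr9:86042070-86053893 and CLCA1 (ENSSSCG00000006933) at chr4:129621259-129655385. The counts are unique molecular identifiers (UMIs) from the 3′ ends of transcripts over the whole gene, so that a level given as UMIs per 1000000 (CPM) is a share of captured molecules and is not scaled to transcript length.

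The deposited matrices were unfiltered and held 21134542 to 40111934 UMIs per library. Cells passing quality control (QC cells) had more than 1249 UMIs, at least 550 genes and at most 12.5% mitochondrial UMIs, and epithelial cells were QC cells with at least 2 UMIs each of EPCAM and KRT8, a cell adhesion molecule and a keratin of simple epithelium. Of 35386 ileal QC cells, 616 were epithelial: 128 and 45 in PP of pigs 1 and 2, 233 and 66 in non-PP, and 53 and 91 in whole ileum. Ambient barcodes held fewer than 100 UMIs and numbered 2186101, and their summed UMIs stand for the free RNA of the suspension. Non-epithelial cells were QC cells with no UMI of EPCAM or KRT8.

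The labelled cell class was checked against markers outside the rule. All 10 tested genes of epithelial adhesion and keratins were higher in epithelial cells than in ambient barcodes (CLDN3, a tight junction protein, by 3.84 on the log2 scale), and all 10 tested leukocyte genes were lower (JCHAIN of plasma cells fell by 4.76), in the test described below. Summed leukocyte transcripts still made up 470 to 1557 CPM of epithelial cells, against 10901 to 15809 CPM of non-epithelial cells. The whole ileum library labelled pig 1 went against its label: Y-linked transcripts stood at 207 CPM in its QC cells and at 0.161 and 0.224 CPM in the PP and non-PP libraries of the same pig, and 37 of its 53 epithelial cells held a Y-linked UMI. In PP, non-PP and whole ileum of pig 2 they stood at 213, 185 and 226 CPM of QC cells. The tests are therefore also given without it, those between dissections with an added pig block or within a range over libraries left out. Levels, ratios, rankings and counts of libraries are given with it. Between 21 and 80 QC barcodes were shared by any pair of the 8 libraries.

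In epithelial cells the mucus genes stood in the order TFF3, SPINK4, AGR2, CLCA1 and MUC2 within each of the 6 libraries, and every gene was highest in PP and non-PP of pig 1. TFF3 stood at 36669 and 4359 CPM in PP of pigs 1 and 2, at 45351 and 4093 CPM in non-PP, and at 10949 and 7213 CPM in the whole ileum libraries labelled pigs 1 and 2. MUC2 stood at 1465 and 326 CPM in PP, at 1300 and 113 CPM in non-PP, and at 428 and 154 CPM in whole ileum. The levels of both genes in the PP and non-PP libraries of pig 1 lay above all 4 others. Among those 4, TFF3 was higher in both whole ileum libraries than in PP and non-PP of pig 2, whereas MUC2 in PP of pig 2 lay between the whole ileum libraries.

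SPINK4 ranged from 1615 to 10972 CPM over the 6 libraries with a median of 3581 CPM, AGR2 from 573 to 7827 CPM with a median of 2888 CPM, and CLCA1 from 367 to 3163 CPM with a median of 780 CPM. The means were 18106 ± 18123 CPM for TFF3, 5058 ± 3785 for SPINK4, 3505 ± 2700 for AGR2, 1352 ± 1222 for CLCA1 and 631 ± 595 for MUC2 (SD, n = 6 libraries). The highest library exceeded the lowest 11.1-fold for TFF3, 6.79-fold for SPINK4, 13.7-fold for AGR2, 8.63-fold for CLCA1 and 12.9-fold for MUC2. Every neighbouring pair in this order differed in mean by less than the SD of the higher gene.

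**Figure D1:**
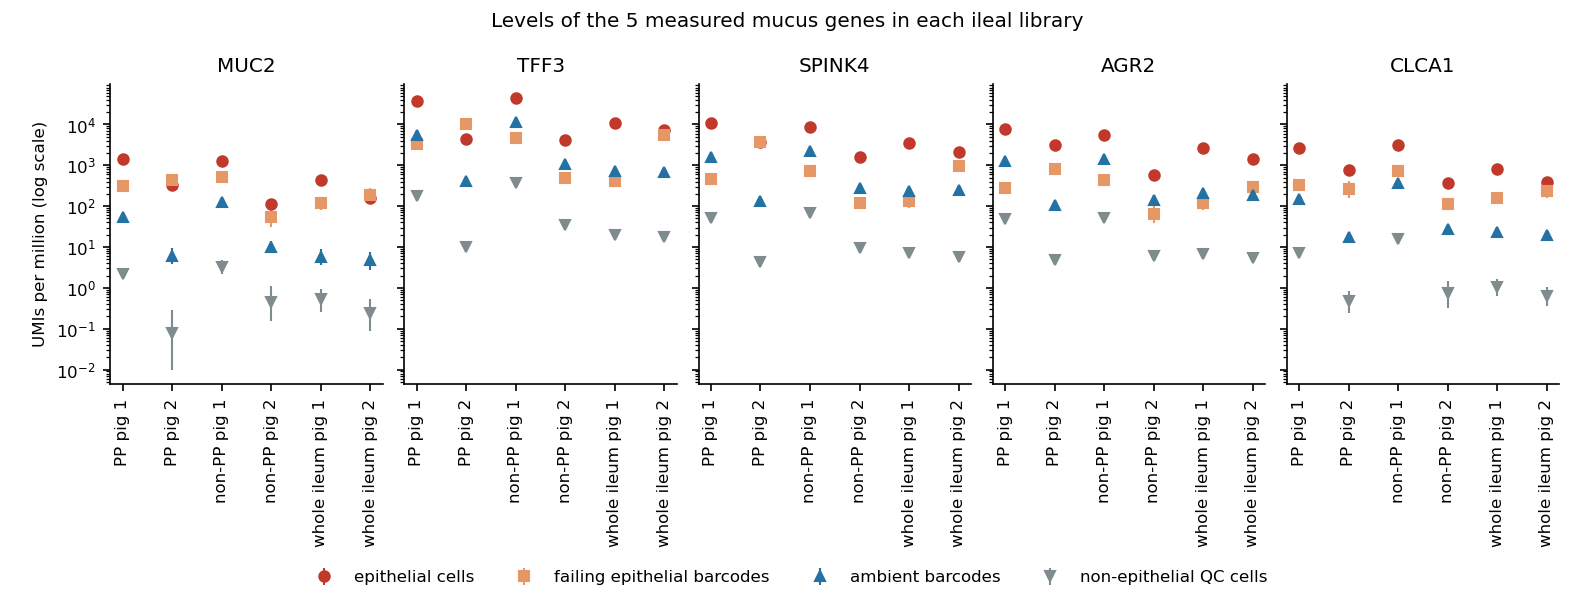
Level of each measured mucus gene (CPM, log scale) in the 6 ileal libraries, with a point for each sum over epithelial cells, failing epithelial barcodes, ambient barcodes and non-epithelial QC cells and exact 95% Poisson intervals that cover counting error only. Epithelial cells lie above ambient barcodes for all 5 genes in all 6 libraries, and the PP and non-PP libraries of pig 1 stand highest, TFF3 reaching 36669 and 45351 CPM there.

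The comparison of epithelial cells with ambient barcodes asks how far the members belong to the cells rather than to free RNA. All 5 were higher in the cells, in 6 of 6 libraries each. MUC2 rose most, by 4.67 ± 0.36 on the log2 scale (estimate ± SE, edgeR's quasi-likelihood test with the library as block and Benjamini-Hochberg adjustment over 8963 genes, adjusted p = 1.99e-06), and CLCA1 rose by 4.25 (adjusted p = 7.36e-07, same edgeR test). SPINK4, AGR2 and TFF3 rose by 3.16, 2.97 and 2.89 (adjusted p of 9.68e-06, 2.08e-05 and 3.91e-06 in edgeR). Of all genes tested, 32.1% were called higher and 29.1% lower, with a median of -0.01. The cells were picked by EPCAM and KRT8, and other epithelial genes rose as well. The 10 tested genes of epithelial adhesion and keratins had a median rise of 3.48. That is above the rises of SPINK4, AGR2 and TFF3 and below those of MUC2 and CLCA1. All 5 calls held without the whole ileum library labelled pig 1.

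The raw ratio of CPM in cells to CPM in ambient barcodes had medians of 30.0 for MUC2 (10.2 to 74.5 over libraries) and 18.5 for CLCA1 (8.41 to 42.7), but 8.55 for TFF3 (3.88 to 14.7), 7.74 for SPINK4 (3.85 to 28.7) and 6.66 for AGR2 (3.93 to 28.5). Genes of the mucus pathway rose as well: 9 of 9 tested regulators of secretory fate, 5 of 5 other mucus granule proteins and 11 of 12 genes of mucin folding and glycosylation. ERN2, a stress sensor of the endoplasmic reticulum found in goblet cells, rose by 4.13, and ITLN2, an intelectin lectin, by 4.39. Among enterocyte genes, 13 of 18 were higher, 1 was lower and 4 were not called.

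Free mucus RNA differed greatly between the suspensions. The 5 genes together made up 0.847% of ambient UMIs in PP and 1.55% in non-PP of pig 1, against 0.0686% and 0.151% in PP and non-PP of pig 2 and 0.121% and 0.114% in the whole ileum libraries labelled pigs 1 and 2. Ambient TFF3 alone stood at 5385 and 424 CPM in PP of pigs 1 and 2, 11399 and 1055 CPM in non-PP, and 744 and 677 CPM in whole ileum. The same pair of libraries was thus highest in ambient barcodes and in cells.

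Background in cells that should lack the genes was small in level but common for TFF3. In non-epithelial QC cells the 5 genes together stood at 2.60 to 3.44% of their ambient CPM. TFF3 was nevertheless seen in 3.61 to 65.9% of these cells (median depth per library of 2446 to 2959 UMIs), and in 1.68 to 41.4% after thinning each cell at random to the smallest depth that QC allowed. MUC2 was seen in 0.0300 to 0.973% of them and CLCA1 in 0.180 to 4.61%.

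Among epithelial cells (median depth per library of 8321 to 13114 UMIs), 9.89 to 42.2% had a UMI of MUC2, 9.09 to 45.3% of CLCA1, 19.8 to 64.1% of SPINK4, 25.8 to 64.8% of AGR2 and 24.4 to 91.4% of TFF3. After the same thinning these shares were 7.58 to 38.3% for MUC2, 7.58 to 36.7% for CLCA1, 13.3 to 41.4% for SPINK4, 12.1 to 45.3% for AGR2 and 13.3 to 54.7% for TFF3. In PP and non-PP of pig 1 TFF3 had the highest share of the 5 before and after thinning. Before thinning AGR2 exceeded it in PP and whole ileum of pig 2 (31.1 against 24.4% and 41.8 against 37.4%). SPINK4 exceeded it in non-PP of pig 2 (39.4 against 30.3%). After thinning AGR2 still exceeded TFF3 in PP and whole ileum of pig 2 (17.8 against 13.3% and 20.9 against 16.5%). SPINK4 and TFF3 were then both at 18.2% in non-PP of pig 2.

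**Figure D2:**
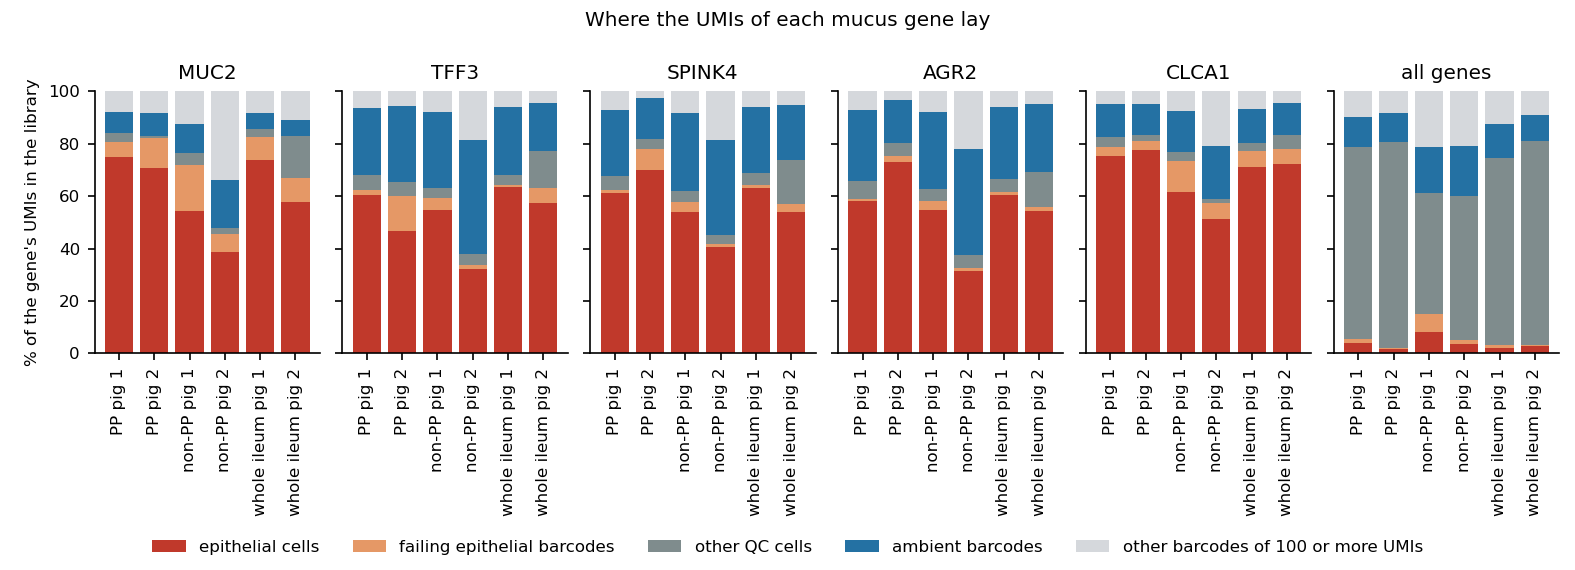
Share of each gene's UMIs in a library (percent, stacked bars reaching 100) that lay in epithelial cells, failing epithelial barcodes, other QC cells, ambient barcodes and the remaining barcodes of 100 or more UMIs, for the 5 mucus genes and for all genes. Epithelial cells held 1.70 to 8.27% of all UMIs but 34.7 to 63.3% of those of the 5 genes, and the ambient part was smaller for MUC2 and CLCA1 than for TFF3, SPINK4 and AGR2.

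The plot of where the UMIs lay shows how much of these genes the few epithelial cells held. Epithelial cells held 61.2 and 60.2% of the UMIs of the 5 genes in PP of pigs 1 and 2, 54.8 and 34.7% in non-PP, and 63.3 and 56.7% in whole ileum. Ambient barcodes held 19.5 to 40.4% of them, and more than epithelial cells in non-PP of pig 2 (40.4 against 34.7%). For MUC2 the ambient part was 5.92 to 18.3% and for CLCA1 11.6 to 20.1%, below that of TFF3 (18.3 to 43.4%) in every library.

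Within the epithelium the mucus genes were concentrated in a minority of cells. Cells with at least 1% of their UMIs from the 5 genes, called mucus-high here, were 154 of 616 and held 93.3 to 99.5% of the members' UMIs of epithelial cells. They were 49 and 6 cells in PP of pigs 1 and 2, 72 and 6 in non-PP, and 11 and 10 in whole ileum. As shares of epithelial cells these are 38.3% (exact 95% binomial interval 29.8 to 47.3%) and 13.3% (5.05 to 26.8%) in PP, 30.9% (25.0 to 37.3%) and 9.09% (3.41 to 18.7%) in non-PP, and 20.8% (10.8 to 34.1%) and 11.0% (5.40 to 19.3%) in whole ileum, with intervals that cover counting error only. Leukocyte markers (a UMI of a T or B cell antigen receptor complex gene, or at least 2 of PTPRC) were carried by 242 of the 616 epithelial cells and 47 of the 154 mucus-high cells, among them 5 of the 6 in non-PP of pig 2, and doublets were not removed. Without such cells, an alternative chosen after the data were seen, 28 of 70 cells in PP of pig 1 were mucus-high, and the shares were 14.3% in PP of pig 2, 39.6 and 2.56% in non-PP (1 of 39 cells in pig 2, 0.0649 to 13.5%), and 18.5 and 11.8% in whole ileum. In PP and non-PP the share was higher in pig 1 than in pig 2 with and without these cells, and the lymphocyte enrichment and the QC limits can set these shares.

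The class is a range of a score with no gap at its limit. The members' share was between 0.5 and 5% in 28 cells, and the nearest cells had 0.910, 0.948 and 0.978% just outside and 1.03, 1.04 and 1.08% just inside. The median share in mucus-high cells was 7.41 to 26.9% over libraries and the highest cell reached 36.1%, while the median of the other epithelial cells did not exceed 0.0324%. Median depth was 7252 to 14570 UMIs in mucus-high cells and 9037 to 13652 UMIs in the others, and median mitochondrial share was 2.18 to 6.04% and 6.39 to 7.79%. In the other epithelial cells the 5 genes together stood at 0.0325 to 0.326 times their ambient CPM.

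**Figure D3:**
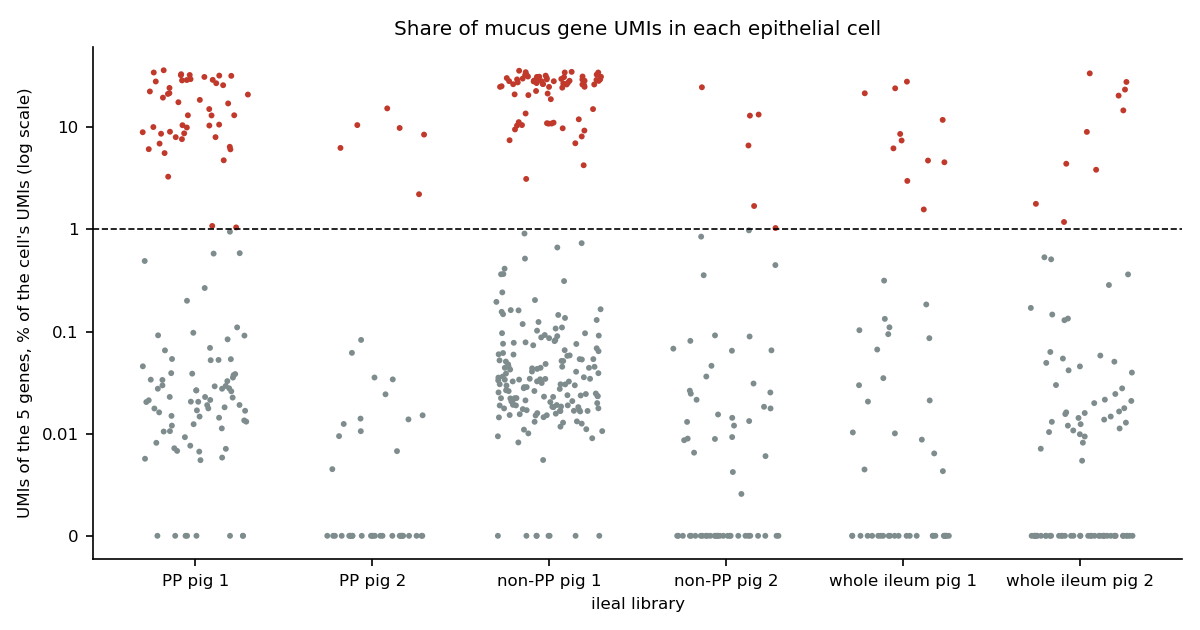
Each point is an epithelial cell of an ileal library, placed by the share of its UMIs that came from the 5 mucus genes (percent, log scale with 0 drawn at the bottom), and the dashed line marks 1%. The 154 red cells lie at or above the line and the 462 grey cells below it, the classes meet at the line with no gap, and 28 cells lie between 0.5 and 5%.

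Mucus-high cells carried the genes together: 149 of the 154 had a UMI of all 5. TFF3 was the highest of the 5 in 131 cells, AGR2 in 11, SPINK4 in 9, CLCA1 in 2 and MUC2 in 1. Over the pooled cells, 121 of them from PP and non-PP of pig 1, medians were 1075 UMIs of TFF3 (148114 CPM) and 34 UMIs of MUC2 (4109 CPM). They were 27582 CPM for SPINK4, 17481 CPM for AGR2 and 10329 CPM for CLCA1. By library the TFF3 median was 81578 and 23724 CPM in PP of pigs 1 and 2, 192595 and 59633 CPM in non-PP, and 32032 and 69751 CPM in whole ileum. That of MUC2 was 4190 and 1952, 4685 and 1752, and 2569 and 1572 CPM. A single PP cell of pig 1 held 3889 UMIs of TFF3. Over libraries the level in mucus-high cells ranged from 23656 to 180484 CPM for TFF3, from 6682 to 23168 for AGR2, from 1483 to 5181 for MUC2, from 4006 to 12624 for CLCA1 and from 17175 to 33483 for SPINK4, so that SPINK4 varied least (1.95-fold).

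The members did not vary as a block from cell to cell. The 154 mucus-high cells share libraries and ranged from 1359 to 37323 UMIs in depth, and the part of depth in these values was not tested. Spearman's rho of CPM was 0.69 for TFF3 with SPINK4 (0.66 in the 49 PP and 0.65 in the 72 non-PP cells of pig 1) and 0.59 for SPINK4 with AGR2 (0.49 and 0.68). MUC2 with CLCA1 had a rho of 0.58 (0.68 and 0.26). TFF3 with AGR2 had 0.41 (0.17 and 0.58). For the other pairs the values were mixed. MUC2 had -0.13 with AGR2 (-0.46 and -0.17), 0.16 with SPINK4 (0.06 and -0.12) and 0.36 with TFF3 (0.47 and -0.25). CLCA1 had -0.00 with SPINK4 (-0.04 and -0.35), -0.07 with AGR2 (-0.41 and -0.05) and 0.43 with TFF3 (0.46 and -0.06).

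Of the 5 mucus-high cells without all members, a non-PP cell of pig 2 differed in kind. It held 119 UMIs of SPINK4 and 3 of TFF3, none of MUC2, AGR2, CLCA1 or SPDEF, and 4803 UMIs of GCG and 808 of PYY, the hormones proglucagon and peptide YY of enteroendocrine cells, among 11837 UMIs. Its members' share was 1.03%. The other 4 cells had 4 to 10 UMIs of SPDEF and at most 1 UMI of GCG.

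Epithelial cells with enteroendocrine transcripts, a split chosen after the values were seen, carried SPINK4 and TFF3 more than the other members. In the 47 cells with at least 1% of UMIs from the enteroendocrine list, of which 1 was mucus-high, SPINK4 stood at 1523 CPM (exact 95% Poisson interval 1385 to 1670, counting error only), TFF3 at 685 CPM, AGR2 at 191 CPM, and MUC2 and CLCA1 at 3.41 CPM each, from 1 UMI. SPINK4 was seen in 31 of these cells and reached 10 UMIs in 10, while TFF3 was seen in 36 and reached 10 UMIs in 5. Non-PP of pig 2 held 248 of the 447 SPINK4 UMIs, and without that library SPINK4 stood at 890 CPM (770 to 1022) and TFF3 at 814 CPM (700 to 941). The enterocyte class was cut differently, since mucus-high cells were left out of it. In its 256 cells, with at least 1% enterocyte transcripts, SPINK4 stood at 36.7 CPM, TFF3 at 130 CPM and AGR2 at 17.6 CPM. The 1 mucus-high cell kept in the enteroendocrine class held 119 of the 447 SPINK4 UMIs there. By library, SPINK4 in the enteroendocrine class was 394 and 0 CPM in PP of pigs 1 and 2 (10 and 2 cells), 1395 and 3548 CPM in non-PP, and 960 and 1146 CPM in whole ileum, above the enterocyte class (0 to 60.2 CPM) in 5 of 6 libraries. TFF3 exceeded SPINK4 in PP of both pigs (653 and 94.7 CPM) and lay below it in the 4 other libraries. Pooled, TFF3 was also the highest member in the enterocyte class, where 270 of its 355 UMIs came from non-PP of pig 1. In non-PP of pig 2 SPINK4 stood above it in this class (34.5 against 31.6 CPM). In PP and non-PP of pig 1 TFF3 stood at 130 and 223 CPM in the enterocyte class. These values lay below the 181 and 377 CPM of TFF3 in non-epithelial QC cells of the same libraries. The part of background in the ranking was not tested. Mucus-high cells were also left out of the 160 cells of neither class. Pooled levels there were 160 CPM for TFF3, 151 for AGR2 and 61.1 for SPINK4. AGR2 exceeded TFF3 in PP of pig 2 (64.2 against 18.3 CPM) and both whole ileum libraries (115 against 93.6 and 199 against 54.4). TFF3 lay above AGR2 in PP of pig 1 and in both non-PP libraries. A single non-PP cell of pig 2 held 102 UMIs of TFF3. Without that library AGR2 stood above TFF3 in the pooled class (155 against 129 CPM). In PP and non-PP of pig 1, TFF3 was seen in 8 of 10 and 14 of 15 cells of the enteroendocrine class. It was seen there in 48.9 and 65.9% of non-epithelial QC cells, with depth not matched.

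The comparison of mucus-high with other epithelial cells describes what else such cells express. The 5 members made the groups, and their own tests are not read. They remain in the counts that follow, as 5 of the genes tested and 5 of those called higher. Of 4481 genes tested over the 6 libraries with the library as block, 694 (15.5%) were called higher and 793 (17.7%) lower, with a median of -0.09, by edgeR's quasi-likelihood test with Benjamini-Hochberg adjustment, and 682 and 718 without the whole ileum library labelled pig 1. Since both groups were cut by the members' UMIs in the same cells, genes that vary with the members had to differ.

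Regulators of the secretory fate were higher throughout, 8 of 8 tested. SPDEF rose by 8.78 on the log2 scale, with 1813 UMIs in mucus-high and 17 UMIs in other cells. FOXA3, a forkhead factor, rose by 6.35, and CREB3L4 and CREB3L1, membrane-bound factors of secretory cells, rose by 5.69 and 5.13. HES1, a Notch target more often linked to the absorptive fate, was higher too, by 1.91, in 6 of 6 libraries.

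All 5 other tested mucus granule proteins were higher. ITLN2 rose by 10.46, TFF2, a trefoil peptide, by 10.19, RETNLB, a resistin-like antibacterial protein, by 8.08 and REG4, a C-type lectin, by 7.50, while LYPD8, a secreted protein that binds bacterial flagella, rose by 1.97. The machinery of mucin folding and glycosylation was higher in 11 of 11 tested genes, led by ERN2 (5.35), the sialyltransferase ST6GALNAC1 (4.04), the disulfide-forming QSOX1 (3.62), the branching enzyme GCNT3 (3.61) and the initiating GALNT7 (2.43). Each of these 10 genes was higher in 6 of 6 libraries.

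Genes of granule release and hydration were divided: 6 were higher, 2 lower and 1 not called. BCAS1, CAPN9 and RAB27A, a small GTPase of granule docking, rose by 7.23, 5.34 and 3.14. NLRP6, an inflammasome sensor, fell by 2.49 (17 UMIs in mucus-high cells) and CFTR, the chloride and bicarbonate channel, fell by 2.15 (7 UMIs). VAMP8, a vesicle fusion protein, differed by -0.09 (adjusted p = 0.796 in edgeR). Enterocyte genes were lower in 10 of 11 cases, with FABP6, the ileal bile acid binding protein, at -4.41, FABP2 at -3.65 and the peptidase ANPEP at -3.57.

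Keratin and adhesion genes were higher in 6 of 10 cases and not called in 4, with KRT18 at 3.59 and CLDN4 at 2.83. Of 6 tested crypt and cycling genes, OLFM4, a crypt stem cell marker, and PCLAF, a replication factor, fell by 2.56 and 1.38. Of 2 tested BEST4 cell genes, GUCA2B fell by 1.30. The 8 tested leukocyte genes lay between -0.42 and 0.74, CD52 having the lowest adjusted p (0.0660 in edgeR). The summed level of the list was 357 to 938 CPM in mucus-high and 433 to 1714 CPM in other cells. All 4 tested enteroendocrine genes were called lower (GCG -6.60, SCG2 -6.22, PYY -5.83 and CHGA -5.48), GCG and PYY in 5 of 6 libraries: the non-PP cell of pig 2 described above held 4803 of the 4820 GCG UMIs of all mucus-high cells.

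**Figure D4:**
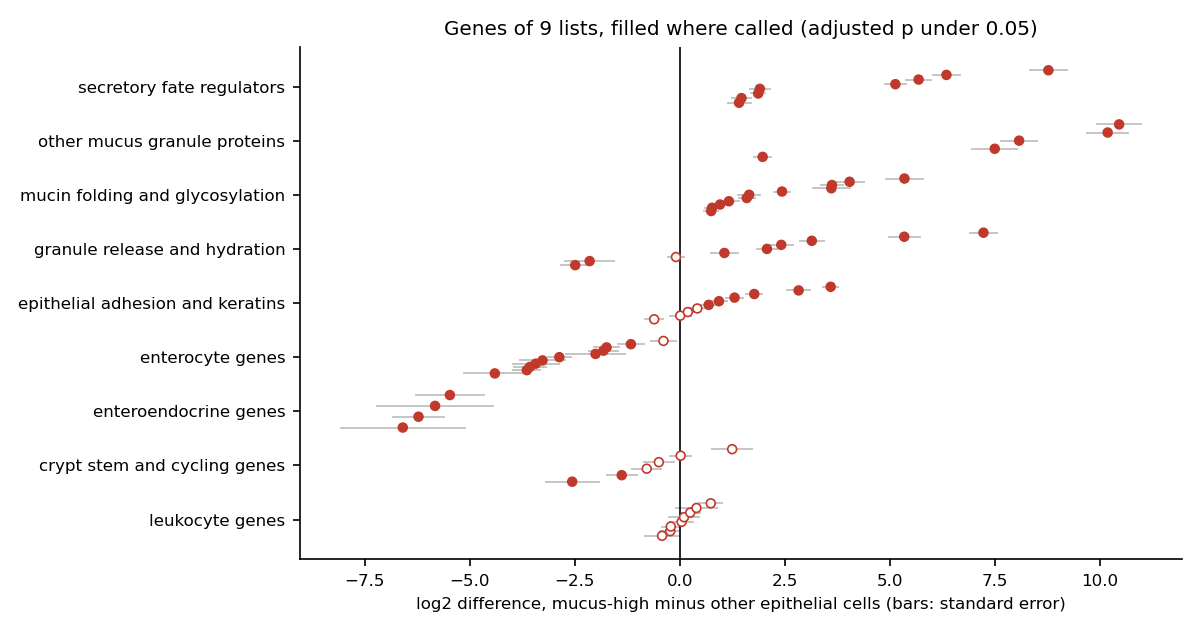
Log2 difference between mucus-high and other epithelial cells (x axis, bars give the standard error) for each tested gene of 9 lists of intestinal genes, filled where edgeR's adjusted p was under 0.05. The 24 genes of the first 3 lists are all filled and to the right of 0, up to 10.46 for ITLN2, enterocyte and enteroendocrine genes lie to the left, and no leukocyte gene is filled.

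The 10 non-member genes with the highest log2 difference and the same sign in all 6 libraries were TCN1, ITLN2, TFF2, ENSSSCG00000027515, SPDEF, LRRC31, MLPH, RETNLB, HES2 and CBLIF. They were picked by this difference, so their few UMIs in other epithelial cells and the large ratios below follow from the choice. LRRC31, with 0 UMIs in other cells, could pass the count filter only through the mucus-high sums. TCN1 and CBLIF, the vitamin B12 binding proteins transcobalamin 1 and gastric intrinsic factor, had 1652 and 117 UMIs in mucus-high cells against 3 and 1 UMIs in the others, which is 2011-fold (exact 95% interval 687 to 9760, counting error only) and 427-fold (75.2 to 17017) per UMI. MLPH, a partner of RAB27A in granule transport, had 298 against 3 UMIs (363-fold, 123 to 1769), and HES2 had 111 against 1 (405-fold, 71.3 to 16152). LRRC31 had 107 against 0, with an exact 95% lower limit of 104-fold. The ratio was 130-fold when the 0 was replaced by 3 counts in the summed group. The unnamed gene ENSSSCG00000027515 had 9015 against 79 UMIs.

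Genes were also ranked by correlation with the summed members. The members' share of UMIs made the mucus-high class in the same cells, so names shared by both lists are no separate support. Over the 616 epithelial cells, with values centred within libraries, the 10 of 8216 ranked genes with the highest Pearson's r with the summed members were SPDEF (0.91), ENSSSCG00000027515 (0.90), HSD11B2 (0.86), FAM3D (0.86), TFF2 (0.86), TCN1 (0.81), KRT18 (0.80), DUSP1 (0.76), MSMB (0.76) and ANG (0.76). Cells of a library share its depth and free RNA, and no test was made. Of these 10, SPDEF, ENSSSCG00000027515, TFF2 and TCN1 were also among the 10 above.

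The dissections were compared to ask whether the mucus genes differ between ileum without and with Peyer's patches. In epithelial cells no member was called by edgeR, by DESeq2 or at an unadjusted p under 0.05. The differences, non-PP minus PP on the log2 scale, were -0.22 ± 1.07 for MUC2, 0.39 ± 1.14 for TFF3, -0.42 for SPINK4, -0.72 for AGR2 and 0.18 for CLCA1 (estimate ± SE, edgeR with Benjamini-Hochberg adjustment over 6892 genes, adjusted p = 0.998 for each). Of all genes, 0.0290% were called (0 higher and 2 lower, and 342 had an unadjusted p under 0.05). In such sums, fewer cells of a type and less RNA per cell cannot be told apart.

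MUC2, SPINK4 and AGR2 were lower in non-PP than in PP within both pigs, while TFF3 and CLCA1 differed in direction between the pigs. The log2 ratio of non-PP to PP was -0.17 in pig 1 and -1.53 in pig 2 for MUC2, 0.31 and -0.09 for TFF3, -0.37 and -1.21 for SPINK4, -0.52 and -2.42 for AGR2, and 0.27 and -1.07 for CLCA1. With the pig as block 15 genes were called higher and 21 lower and no member (AGR2 -1.21, adjusted p = 0.577 in edgeR). With the pig as block and without the whole ileum library labelled pig 1, an alternative chosen after the data were seen, AGR2 fell by 1.41 (adjusted p = 0.00456) beside 139 genes higher and 122 lower (3.34% of 7819). That fit has 1 residual degree of freedom, and over 15 alternatives the adjusted p of AGR2 ranged from 0.00456 to 1.00 and passed in this fit alone.

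In ambient barcodes all 5 members were higher in non-PP than in PP in both pigs, but none was called in the planned edgeR fit, by DESeq2 or at an unadjusted p under 0.05. The differences were 1.41 for MUC2, 1.31 for TFF3, 0.73 for SPINK4, 0.36 for AGR2 and 1.44 for CLCA1 (edgeR adjusted p of 0.478, 0.544, 0.725, 0.873 and 0.487), where 11.1% of 9857 genes were called and 4.33% were called higher. Within pigs 1 and 2 the log2 ratios were 1.27 and 0.75 for MUC2, 1.08 and 1.32 for TFF3, 0.46 and 1.09 for SPINK4, 0.13 and 0.40 for AGR2, and 1.29 and 0.62 for CLCA1. Their median difference was 1.31, against 0.04 over all genes and 2.57 over 18 enterocyte genes, of which 7 were called higher (SLC15A1, a peptide transporter, by 3.34).

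With the pig as block, 835 genes were called higher and 870 lower, and still no member (adjusted p of 0.186 to 0.776 in edgeR). With the block and without the whole ileum library labelled pig 1, MUC2 rose by 1.27, TFF3 by 1.28, CLCA1 by 1.14 and SPINK4 by 0.86 (adjusted p of 0.000376, 0.000630, 0.00103 and 0.00696), while AGR2 stood at 0.34 (adjusted p = 0.239). That fit called 16.6% of 10515 genes higher, again with 1 residual degree of freedom, and no other alternative called a member: over 13 alternatives the adjusted p ranged up to 0.841 for MUC2 and 0.886 for TFF3. Of the other mucus genes, 1 of 7 granule proteins was called lower in the planned fit (KLK1, a secreted kallikrein, by 3.84), 2 of 8 release genes were called higher (NLRP6 by 2.64 and SYTL2 by 1.57), and the medians of 8 regulators and 12 folding genes were 0.25 and 0.55. Leukocyte genes moved in both directions, 3 higher and 5 lower of 11. The part of these shifts in the members' values was not tested.

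Barcodes that met the epithelial rule on EPCAM and KRT8 with at least 500 UMIs but failed a QC limit numbered 622, most of them for mitochondrial share. Their median mitochondrial share was 20.7 to 41.8% by library. All 5 members were called lower there than in epithelial cells that passed, in a test that again used the library as block. AGR2 fell by 3.22 (adjusted p = 7.05e-07, edgeR, lower in 6 of 6 libraries), SPINK4 by 2.79 (0.000381, 6 of 6), TFF3 by 2.22 (0.00677, 5 of 6), CLCA1 by 1.79 (1.14e-05, 6 of 6) and MUC2 by 0.91 (0.0192, 4 of 6). Of 4928 genes, 15.8% were called lower and 16.8% higher.

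The level of TFF3 was 3234 and 10544 CPM in failing barcodes of PP of pigs 1 and 2, 4534 and 499 CPM in non-PP, and 420 and 5494 CPM in whole ileum. MUC2 stood there between 54.6 and 503 CPM with a median of 252 CPM. In PP of pig 2, with 17 failing barcodes, both genes stood higher in failing barcodes than in passing cells, and MUC2 did so in whole ileum of pig 2 as well. Mucus-high barcodes were 43 of the 622, against 154 of 616 passing cells.

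The call for AGR2 held in all 14 alternatives and all 5 calls held without the whole ileum library labelled pig 1, whereas that for MUC2 was lost in 5. Without the library block the adjusted p was 0.271 for MUC2, 0.0955 for TFF3 and 0.0576 for SPINK4. MUC2 was also lost with DESeq2 (0.0839), without PP of pig 1 (0.122), without non-PP of pig 1 (0.0648) and without cells carrying leukocyte markers (0.0740), where CLCA1 was lost too (0.0684). Other goblet genes were lower with the members: 4 of 6 regulators, 3 of 5 granule proteins (REG4 by 4.90) and 7 of 10 folding genes (QSOX1 by 1.79). Of 9 release genes, 6 were lower and 1, NLRP6, was higher. All 4 tested enteroendocrine and all 6 tested crypt genes were lower, 13 of 15 enterocyte genes were higher (ANPEP by 1.58), and 4 of 9 leukocyte genes were higher. The part of these shifts and of the mitochondrial share in the members' lower values was not tested.

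The members' ratios to each other were not the same in cells and in free RNA. TFF3 over MUC2 was 69.5 to 142 in ambient barcodes and 13.3 to 46.6 in mucus-high cells of the same libraries, higher in ambient barcodes in 6 of 6 libraries by 2.57- to 5.23-fold. TFF3 over CLCA1 was 23.5 to 38.2 and 5.64 to 18.2, again higher in 6 of 6 by 1.88- to 4.17-fold. By contrast, TFF3 over SPINK4 (2.76 to 5.17 and 1.16 to 5.39) was higher in ambient barcodes in 4 of 6 libraries, and TFF3 over AGR2 (3.51 to 8.19 and 1.43 to 8.33) in 1 of 6.

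In failing barcodes TFF3 over MUC2 (3.58 to 29.4) was below mucus-high cells in 5 of 6 libraries. There ambient and failing barcodes differed from the cells in opposite directions. The exception was PP of pig 2. Counts were low outside PP and non-PP of pig 1. In the 4 other libraries MUC2 had 16 to 31 UMIs in failing and 16 to 42 UMIs in ambient barcodes. Mucus-high failing barcodes were 1 or 2 in each of them. TFF3 over AGR2 in failing barcodes (3.58 to 19.1) was above mucus-high cells in 4 of 6.

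**Figure D5:**
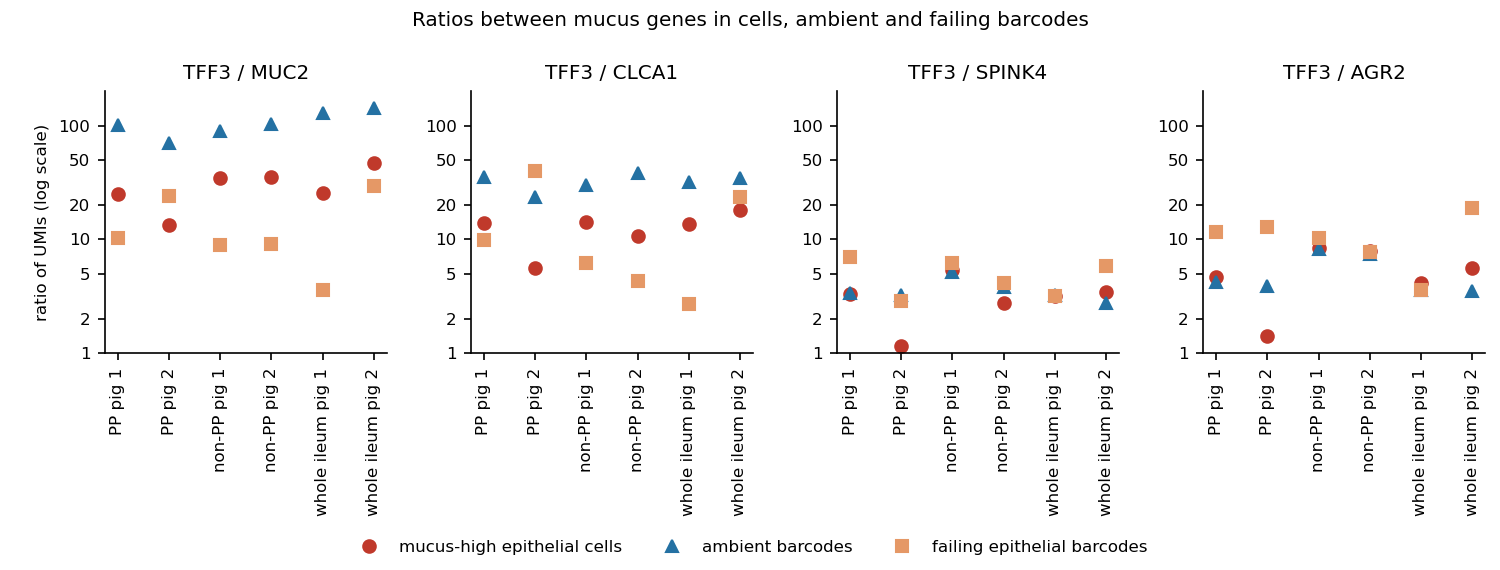
Ratio of TFF3 UMIs to those of MUC2, CLCA1, SPINK4 and AGR2 (log scale) in mucus-high cells, ambient barcodes and failing epithelial barcodes of each ileal library. Triangles for ambient barcodes lie above the circles for cells in all 6 libraries for TFF3 over MUC2 (69.5 to 142 against 13.3 to 46.6) and TFF3 over CLCA1, and overlap with them for TFF3 over SPINK4 and TFF3 over AGR2.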

How the data were processed

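Single-cell suspensions of 3 ileal dissections and of blood from 2 pigs were run on 10x Chromium 3′ chemistry, and each library was sequenced in 4 runs that the authors pooled. The authors deposited unfiltered UMI counts for every gene and barcode, made with Cell Ranger against Sscrofa11.1 with an Ensembl annotation, before their removal of ambient RNA, cell filtering and doublet removal (the submitters' processing notes give Cell Ranger 4.0.6). Cells were filtered here with the limits given above, doublets were not removed, and no cell type annotation was used. UMIs per barcode were summed by library, since cells are not replicates, and the sums were tested with edgeR 4.0.16 (filterByExpr, TMM, quasi-likelihood test, Benjamini-Hochberg adjustment, called at an adjusted p under 0.05) under R 4.3.3, and as an alternative with DESeq2 1.42.0. Standard errors were derived from the fold change and the F statistic, and each test was also tried on simulated data. The simulated libraries differed in depth but had no pig or library effect, so that trial does not cover the spread between real libraries. Other alternatives were no filter on low counts, no TMM scaling, other EPCAM and KRT8, ambient and mucus-high limits, no cells with leukocyte markers, replicate blocks and each library left out. Levels are summed UMIs in CPM with exact Poisson intervals, shares have exact binomial intervals, and both cover counting error only.

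The members and gene lists were chosen with earlier results of these data known. Named genes were the members, up to 5 called genes of a list with the largest log2 difference, the 10 called genes with the largest rise and the same sign in all libraries in mucus-high cells, and the 10 genes most correlated with the summed members; all others named were chosen after their values were seen. Dissections of the same number came from the same pig per the labels, and the pig block rests on that, although the whole ileum library labelled pig 1 went against its label. Of 25880 genes, 17733 were named in the matrices, 977 through a name table and 7170 not. MUC5AC, MUC5B, ZG16, ITLN1, AGR3, MUC1 and MUC4 were among listed genes that matched no row. The stromal and red cell lists had at most 5 genes in any test, and membrane mucins and tuft cell genes at most 2: in epithelial cells against ambient barcodes COL3A1, HBB and LRMP fell by 3.63, 8.17 and 3.25 and MUC13 rose by 1.59.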

Additional observations from a re-analysis of the deposited data

Results flagged for a closer look

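SPINK4 was found in the blood libraries at barcodes rich in the haemoglobin gene HBB, which no comparison of the report used. In barcodes of at least 100 UMIs with at least 20% of their UMIs from HBB, SPINK4 had 300 UMIs in PBMC of pig 1 (46.8 CPM, exact 95% Poisson interval 41.6 to 52.4, 1319 barcodes) and 41 UMIs in PBMC of pig 2 (33.9 CPM, 24.3 to 46.0, 330 barcodes), against 17 and 3 UMIs (0.625 and 0.0891 CPM) in the barcodes with less HBB. MUC2, AGR2 and CLCA1 had 0 UMIs in the HBB-rich barcodes of both libraries, where a floor of 3 counts corresponds to 0.468 and 2.48 CPM, and TFF3 had 1 and 0 UMIs. Genes that stood with SPINK4 in pig 1 were AHSP, the alpha haemoglobin stabilising protein, and ALAS2, the haem synthesis enzyme of red cell precursors (2124 and 1896 CPM in the 263 barcodes with SPINK4, 6.72 and 6.03 times their level in the rest). HBB, AHSP and ALAS2 were named after their values were seen.

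Ambient barcodes of the blood libraries held the mucus genes mostly at barcodes that were mucus-high cells in an ileal library. These barcodes were 152 of 365225 in PBMC of pig 1 and 148 of 392761 in PBMC of pig 2, and held 57.2% (167 of 292 UMIs) and 60.5% (205 of 339) of the ambient UMIs of the 5 genes, against 0.0690% and 0.0696% of those of all genes. In the ileal libraries, barcodes that were mucus-high in another ileal library held 0.103 to 6.02% of the ambient UMIs of the 5 genes. The cause was not tested.

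Outside the epithelial rule, 11 ileal QC cells had at least 1% of their UMIs from the 5 genes: 2 in PP of pig 1, 6 in non-PP of pig 1 and 3 in whole ileum of pig 2. PBMC had 0 such cells of 6443 and 6800.

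In epithelial cells the pigs differed in the direction of non-PP against PP for 2 members. The log2 ratio was 0.31 in pig 1 and -0.091 in pig 2 for TFF3, and 0.27 and -1.07 for CLCA1. With 1 library per pig and dissection this difference was not tested.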

How the results depend on the processing

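The members' levels in epithelial cells moved by less than 1 SD in all 50 values under 10 alternatives. This is a wide limit, since for TFF3, MUC2 and CLCA1 the SD was close to the mean. Over the alternatives the mean of MUC2 (631 CPM) ranged from 464 to 1042 CPM and that of CLCA1 (1352 CPM) from 990 to 1840 CPM. The 5 members stayed called against ambient barcodes in all 80 values. Epithelial cells of non-PP against PP, with 0 genes higher and 2 lower, gave 11 and 17 with DESeq2, 93 and 78 with no filter on low counts, 15 and 21 with the pig as replicate block, 139 and 122 with that block and without the whole ileum library labelled pig 1 (added after the data were seen), 4 and 4 with at least 1 UMI of EPCAM and KRT8, 0 lower without cells carrying leukocyte markers, and 0 to 79 higher and 0 to 69 lower with each library left out. The ambient comparison gave 679 higher with no filter, 297 lower under 50 UMIs, 835 higher with the pig block, 1748 and 1426 with the block and without that library, and 1 to 970 higher and 75 to 701 lower with each library left out. CLCA1 turned to -0.18 and -0.33 in epithelial cells under these pig blocks, and no other member changed direction under them. With each library left out, the differences in epithelial cells ranged from -2.96 to 1.25 for MUC2, -2.30 to 2.63 for TFF3, -2.16 to 0.55 for SPINK4, -3.22 to 0.14 for AGR2 and -2.19 to 1.33 for CLCA1, and in ambient barcodes from -1.54 to 3.60, -1.45 to 3.99, -1.63 to 3.36, -2.28 to 2.94 and -1.64 to 3.60. In those fits the lone library of a dissection is taken to vary like the others. Failing barcodes gave 1270 lower with no filter, 371 higher and 303 lower with no replicate block, 462 higher and 1454 lower without TMM, 463 and 437 without cells carrying leukocyte markers, and 550 to 862 and 518 to 819 with each library left out. Mucus-high cells gave 1394 lower with no filter and 441 to 799 lower with each library left out. Apart from the added fit, the cause of these shifts was not tested.

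All tests rest on 2 pigs. Those with the library as block take the 6 ileal libraries as samples, so their p-values do not measure the spread between pigs. PP and non-PP of pig 2 rest on 45 and 66 epithelial cells, and intervals cover counting error only.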
